A study of Mus musculus with 6 samples.

Results

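The striatum sends its output through 2 populations of GABAergic medium spiny neurons, and the genes described here mark the population of the indirect pathway. The list named 6 of them, namely Drd2, Adora2a, Penk, Gpr6, Gpr52 and Sp9, and 5 were found by Ensembl identifier among the 46078 genes of the deposited table. Gpr52 had no entry in the annotation used here, GENCODE M21, so it was matched to no row and was not analysed. RefSeq places it on chromosome 1 of GRCm38 (160574717 to 160579704), where the only gene of GENCODE M21 is Rabgap1l, which spans it. All 5 genes that were found passed the filter on low values and were among the 17605 genes tested.

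Striatal RNA came from 12-week-old male C57BL/6J mice of 2 genotypes, 3 wild-type (WT) mice and 3 Shank3 transgenic (TG) mice, which express an EGFP-tagged Shank3 in addition to their own gene. The promoter that drives this transgene is not given in the sources used here. Each library came from 1 mouse. The values are normalized read counts, the read counts per gene divided by a size factor of the library, and between 27689589 and 36647626 recovered counts per library fell on genes. Shank3 itself, the gene the transgene adds, had between 26044 and 29891 normalized read counts in TG mice and between 12918 and 13865 in WT mice, and its adjusted P value by limma was 7.04e-05 (log2 difference 1.05, standard error 0.06).

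Indirect pathway neurons project from the striatum to the external globus pallidus and restrain movement, whereas direct pathway neurons project to the output nuclei and promote it. Both use the cAMP cascade, but they read dopamine in opposite ways. The D2 receptor of the indirect pathway couples to an inhibitory G protein and lowers cAMP, whereas the D1 receptor of the direct pathway raises it through the olfactory G protein Golf. The adenosine A2a receptor, which sits in the same cells as the D2 receptor, also couples to Golf and opposes it. Enkephalin, cut from the precursor that Penk encodes, is the opioid peptide these neurons release.

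The 5 genes lie on 4 chromosomes, so they share no neighbourhood except that Adora2a and Gpr6 are on the same chromosome. Drd2 (ENSMUSG00000032259), the D2 dopamine receptor, lies on chromosome 9 (49340627 to 49408177, plus strand). Adora2a (ENSMUSG00000020178), the A2a receptor, lies on chromosome 10 (75316877 to 75334784, plus strand). Penk (ENSMUSG00000045573), preproenkephalin, lies on chromosome 4 (4133531 to 4138819, minus strand). Gpr6 (ENSMUSG00000046922), an orphan receptor with constitutive coupling to the stimulatory G protein, lies on chromosome 10 (41069977 to 41072285, minus strand). Sp9 (ENSMUSG00000068859), a zinc finger transcription factor required for the development of indirect pathway neurons, lies on chromosome 2 (73271925 to 73284706, plus strand).

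RefSeq promoters (build GRCm38.p6) were at hand for Drd2, Gpr6 and Sp9, and the stretch from 250 to 51 bases before the RefSeq start is shown for each, 5′ to 3′ on the strand of the gene, because these genes were compared for covariation below. For Drd2 this start lies upstream of the GENCODE M21 start given above. Capitals mark matches on either strand to 5 motifs, and overlapping matches run together. The motifs were the GC box, spelled GGGCGG, the related box spelled CACCC, the core of the cAMP response element, spelled TGACG, the CCAAT box and the element spelled TATAAA.
Drd2, chr9:49340153-49340352, plus strand: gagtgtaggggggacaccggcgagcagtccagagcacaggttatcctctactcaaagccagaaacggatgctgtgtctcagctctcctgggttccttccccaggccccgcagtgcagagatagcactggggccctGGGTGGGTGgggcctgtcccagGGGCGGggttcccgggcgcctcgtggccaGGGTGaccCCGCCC
Gpr6, chr10:41072341-41072540, minus strand: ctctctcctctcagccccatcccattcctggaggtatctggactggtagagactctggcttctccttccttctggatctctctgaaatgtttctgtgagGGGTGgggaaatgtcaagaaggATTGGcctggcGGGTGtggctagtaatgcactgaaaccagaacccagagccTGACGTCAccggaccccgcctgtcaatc
Sp9, chr2:73271676-73271875, plus strand: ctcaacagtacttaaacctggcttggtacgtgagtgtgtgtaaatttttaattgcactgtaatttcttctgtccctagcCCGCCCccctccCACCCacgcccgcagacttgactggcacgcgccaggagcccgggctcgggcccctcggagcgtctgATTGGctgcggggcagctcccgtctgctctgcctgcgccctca
No stretch held TATAAA, but the bases between these stretches and the start were not searched. Whether these promoters have such an element close to the start is thus not shown. Drd2 held 2 GC boxes, Sp9 held 1 and Gpr6 held 0, and the GC box was present in 24.6% of the 32851 promoters when the same 200 bases of each were searched. CACCC matched 3 times in Drd2, 2 times in Gpr6 and 1 time in Sp9, against 44.4% of all promoters with a match. Gpr6 alone of these 3 held TGACG, as 2 overlapping matches on opposite strands, a motif found in 12.7% of all promoters. CCAAT was found once each in Gpr6 and Sp9, and in 28.4% of all promoters. The GC content was 67.5% in Drd2, 55.0% in Gpr6 and 61.0% in Sp9, where the median of all promoters was 51.5%. The 3 stretches thus had CACCC in common and no other motif of those searched.

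To compare levels between genes, normalized read counts were divided by the length of the exons in kb. Penk was the most abundant of the 5, with 14760.2 ± 1779 normalized read counts per kb (SD, n = 6), and ranked 27 among 17519 genes with a length. Adora2a followed with 2243 ± 314 per kb (SD, n = 6; rank 473) and Drd2 with 1515 ± 186 per kb (SD, n = 6; rank 812). The ranges of Adora2a (1710 to 2607 per kb) and Drd2 (1240 to 1713 per kb) touched, and Adora2a was the higher of the pair in each of the 6 libraries. Gpr6 had 909 ± 126 per kb (SD, n = 6; rank 1534), below the range of Drd2. Sp9, a transcription factor, was the least abundant with 143 ± 17.6 per kb (SD, n = 6; rank 8099). The ranges of the other neighbours in this order did not overlap.

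None of the 5 genes passed the test between genotypes. All 5 had a lower mean log2 level in TG mice, where 50.8% of all genes tested had a lower mean in TG mice, and the 5 genes are not independent since 4 of them moved together from library to library, as described below. With limma, 0 of the 5 had an adjusted P value under 0.05, where 0.00568% of all genes tested did, and 0 had an unadjusted P value under 0.05, where 4.31% did (2.33% with a lower level in TG mice). By edgeR and DESeq2 on the recovered reads 0 of the 5 were called either. The values of the TG and WT mice overlapped in all 5 genes, where 10.1% of all genes tested had no overlap.

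Drd2 had 3158, 4362 and 3633 normalized read counts in TG replicates 1, 2 and 3 and 3598, 4091 and 4309 in WT replicates 1, 2 and 3. TG replicate 1 was the lowest and TG replicate 2 the highest of all 6 libraries, so the WT range lay within the TG range. TG mice averaged 3718 ± 607 (SD, n = 3) and WT mice 3999 ± 364 (SD, n = 3), which gave a log2 fold change of -0.11 (95% confidence interval -0.35 to 0.12, adjusted P = 0.971 by limma).

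Adora2a had 5238, 7981 and 6544 normalized read counts in TG replicates 1, 2 and 3 and 7026, 6776 and 7639 in the WT replicates. The same libraries were lowest and highest as for Drd2. The log2 fold change was -0.14 (95% confidence interval -0.40 to 0.13, adjusted P = 0.971 by limma), and the coefficient of variation was 20.8% among TG mice against 6.21% among WT mice.

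Penk had 19741, 28237 and 22729.9 normalized read counts in TG replicates 1, 2 and 3 and 25174, 23203 and 25624.5 in the WT replicates. Of the TG mice, 2 were thus below every WT mouse and 1 was above them all. The log2 fold change was -0.08 (95% confidence interval -0.32 to 0.16, adjusted P = 0.973 by limma).

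Gpr6 had 1303, 1866 and 1435 normalized read counts in TG replicates 1, 2 and 3 and 1653, 1627 and 1860.4 in the WT replicates. Again 2 TG mice lay below the WT range, and TG replicate 2 stood just above it. Its log2 fold change was -0.17 (95% confidence interval -0.42 to 0.08, adjusted P = 0.971 by limma), which on the linear scale runs from 0.746 to 1.05 of the WT level.

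Sp9 had 677, 749.7 and 618 normalized read counts in TG replicates 1, 2 and 3 and 687, 878 and 726 in the WT replicates. Here the highest library was WT replicate 2 and the lowest was TG replicate 3, so the order of the mice differed from that of the other 4 genes. The log2 fold change was -0.16 (95% confidence interval -0.38 to 0.06, adjusted P = 0.971 by limma). Sp9 shares 270 of its 5044 exon bases with Cir1 on the opposite strand, and the library kit does not mark strand, so reads in those bases cannot be told apart. Cir1 had between 701 and 822 normalized read counts in the 6 libraries and a log2 fold change of 0.04 (standard error 0.07).

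**Figure D1:**
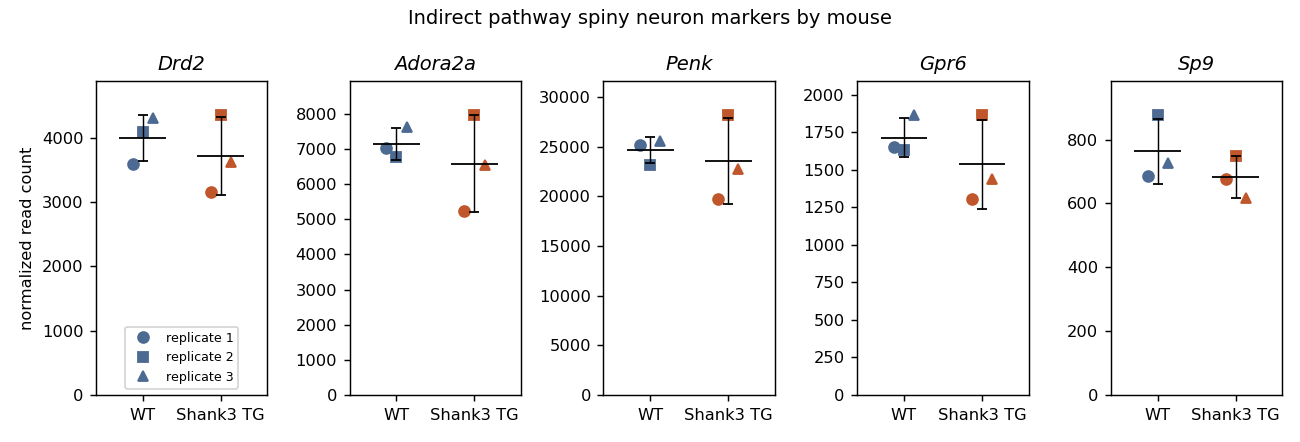
Normalized read counts (vertical axis, from 0) of the 5 matched indirect pathway markers in each mouse, with WT on the left and Shank3 TG on the right of each panel; symbols give the replicate number, horizontal lines the means and bars the SD (n = 3). For Drd2, Adora2a, Penk and Gpr6, TG replicate 1 is the lowest and TG replicate 2 the highest point.

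Two-sided exact permutation tests gave P = 0.7 for Drd2, 0.6 for Adora2a and Penk and 0.4 for Gpr6 and Sp9, where 3 mice against 3 cannot give less than 0.1. The fold changes depended on single mice. Without TG replicate 1 the log2 fold change was -0.0025 for Drd2, 0.02 for Adora2a and 0.04 for Penk, the last pair having changed sign, and -0.06 for Gpr6. Sp9 stayed at -0.16. Without TG replicate 2 the log2 fold change was -0.24 for Drd2, -0.29 for Adora2a, -0.22 for Penk, -0.32 for Gpr6 and -0.23 for Sp9. In that fit each of the 5 had an unadjusted P value under 0.05 by limma, from 0.0013 for Gpr6 to 0.0489 for Sp9, with adjusted P values between 0.469 and 0.851. Over all 17607 genes of that fit 5.82% had an unadjusted P value under 0.05, and 2.86% had one with a lower level in TG mice. Sp9 went to -0.05 without WT replicate 2 and to -0.09 without TG replicate 3. A correction for GC content and gene length took Adora2a to -0.07. With no mouse left out, the limma intervals given above reached down to between 0.746 (Gpr6) and 0.803 (Penk) of the WT level. They reached up to between 1.04 (Sp9) and 1.11 (Penk) of that level. In each of the 5 genes these intervals exclude neither a loss nor a gain, and they leave room for a larger loss than gain.

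**Figure D2:**
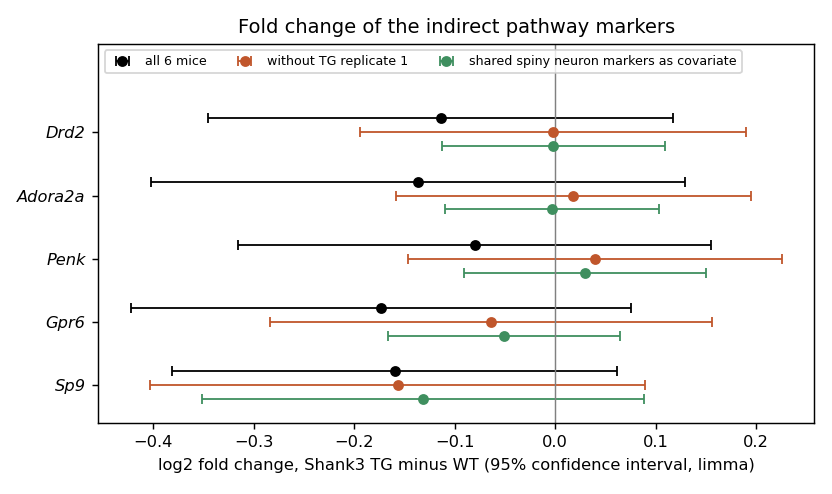
Log2 fold change of the 5 genes between Shank3 TG and WT mice (horizontal axis) with 95% confidence intervals from limma, for all 6 mice, without TG replicate 1 and with the mean level of 15 shared spiny neuron markers as a covariate. All intervals include 0, and the first 4 genes move toward 0 in the lower settings while Sp9 stays between -0.16 and -0.13.

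The spread between mice of the same genotype, pooled over both genotypes, was wide for genes of this abundance. In Drd2, Adora2a, Penk and Gpr6 it was wider among TG mice. Their coefficients of variation were 16.3%, 20.8%, 18.3% and 19.2% among TG mice, against 9.10%, 6.21%, 5.22% and 7.46% among WT mice. Sp9 had 9.65% among TG mice and 13.3% among WT mice. On the log2 scale the SD within groups was 0.19 for Drd2, 0.22 for Adora2a, 0.19 for Penk, 0.20 for Gpr6 and 0.16 for Sp9, against a median of 0.07 over genes with a mean of at least 500 normalized read counts. Of those genes, between 94.8% and 98.5% had a smaller SD than the marker. Counting error was small beside it, since each marker had between 600 and 26101 recovered reads per library, which gives a counting SD between 0.0089 and 0.06 on the log2 scale. Reads were not collapsed by molecular identifiers, so this covers counting error only.

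For 4 of the 5 genes this spread was shared. Drd2, Adora2a, Penk and Gpr6 went up and down together over the 6 libraries, with Pearson r between 0.833 and 0.972 on log2 levels for the 6 pairs among them, whereas the 4 pairs with Sp9 had r between 0.253 and 0.565. Adora2a, Penk and Gpr6 put the 6 libraries in the same order. The first principal component held 82.5% of the variance of the 5 genes. Because the groups were compared on these same genes, r was also computed on deviations from the group means, and it was then between 0.822 and 0.976 for the 6 pairs without Sp9 and between 0.151 and 0.482 for the 4 pairs with it.

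For Adora2a and Penk, Pearson r was 0.972 (exact permutation P = 0.0028, adjusted over the 10 pairs 0.0093) and Spearman rho 1.00 (exact permutation P = 0.0028, adjusted 0.0093). For Adora2a and Gpr6, r was 0.956 and rho 1.00, and for Penk and Gpr6, r was 0.938 and rho 1.00, with the same exact permutation P values as the first pair. For Drd2, r was 0.908 with Adora2a (exact permutation P = 0.025, adjusted 0.05), 0.918 with Gpr6 (exact permutation P = 0.0194, adjusted 0.0486) and 0.833 with Penk (exact permutation P = 0.0389, adjusted 0.0648). Spearman rho was 0.829 in these 3 pairs (exact permutation P = 0.0583, adjusted 0.0972). The libraries farthest from the median were TG replicates 1 and 2, and without both of them r over the other 4 was 0.909 for Adora2a and Penk, 0.959 for Adora2a and Gpr6, 0.859 for Penk and Gpr6, 0.743 for Drd2 and Gpr6, 0.656 for Drd2 and Adora2a and 0.314 for Drd2 and Penk. For Drd2 and Penk, r was 0.597 without TG replicate 1 alone. Leaving out the farthest libraries narrows the range, and 4 libraries are few, so these values do not show what a relation rests on.

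Sp9 had r = 0.565 with Drd2 (exact permutation P = 0.228, adjusted 0.325), 0.307 with Adora2a (exact permutation P = 0.567, adjusted 0.63), 0.253 with Penk (exact permutation P = 0.672, adjusted 0.672) and 0.455 with Gpr6 (exact permutation P = 0.339, adjusted 0.424). Spearman rho was 0.657 with Drd2 (exact permutation P = 0.175, adjusted 0.242) and 0.60 with the other 3 genes (exact permutation P = 0.242, adjusted 0.242). Without TG replicates 1 and 2, the farthest libraries in these pairs too, r was 0.633 with Drd2, 0.146 with Adora2a and -0.0090 with Penk. For Gpr6 and Sp9 the farthest were TG replicates 1 and 3, and r without them was -0.36. Whether Sp9 differs from the others in its covariation was not tested. For the pairs without Sp9, between 0.114% and 4.14% of all genes tested had a higher r with a gene of the pair than its partner had, and for the pairs with Sp9 this share was between 11.2% and 33.3%.

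**Figure D3:**
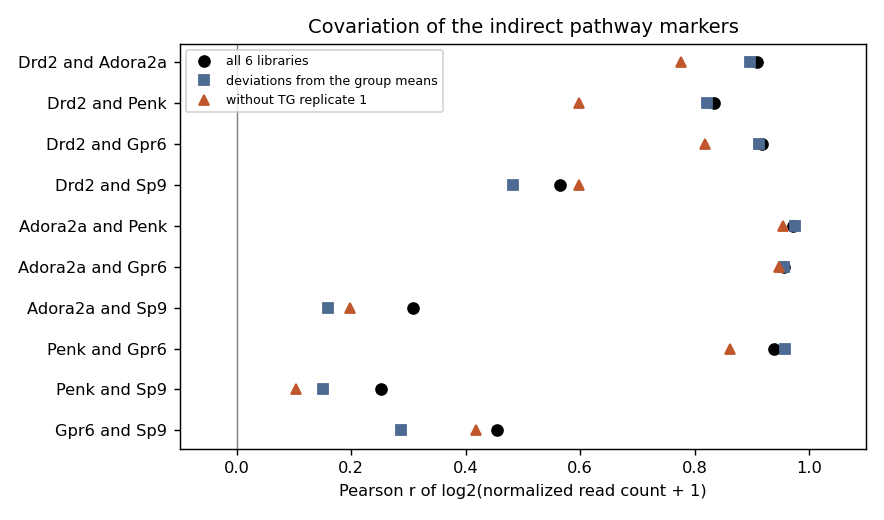
Pearson r (horizontal axis) between the log2 levels of each pair of indirect pathway markers over all 6 libraries, on deviations from the group means and without TG replicate 1. The 6 pairs among Drd2, Adora2a, Penk and Gpr6 lie at 0.833 or above with all libraries, and the 4 pairs with Sp9 at 0.565 or below.

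The same mice were low and high for genes of the other spiny neurons. Relative to the WT mean, the 5 indirect pathway markers had median log2 deviations of -0.34, 0.13 and -0.13 in TG replicates 1, 2 and 3. The median of 9 direct pathway markers was -0.21, 0.11 and -0.11 in these libraries, and that of 15 markers shared by both kinds of spiny neuron was -0.30, 0.11 and -0.09. Of the shared markers, 14 of 15 were below the WT mean in TG replicate 1, 0 of 15 in TG replicate 2 and 14 of 15 in TG replicate 3. In striatal tissue, fewer cells of a type and less RNA per cell cannot be told apart.

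Cortical excitatory neuron markers ran the other way. The median of the 10 markers on that list was 0.11, -0.30 and 0.21 in TG replicates 1, 2 and 3, with 0, 10 and 2 of 10 markers below the WT mean. Their summed level was between 30436 and 43243 normalized read counts in TG mice and between 35374 and 40946 in WT mice. Slc17a7, the vesicular glutamate transporter of cortical neurons and the marker with the most reads, had 29848, 20237 and 28555 normalized read counts in TG replicates 1, 2 and 3, so the mouse highest in the indirect pathway markers was lowest in Slc17a7. Choroid plexus markers summed to 28891, 9427 and 8473 normalized read counts in TG replicates 1, 2 and 3 and to between 8082 and 9213 in WT mice, and their median in TG replicate 1, the library lowest in 4 of the 5 genes, was 2.96 above the WT mean on the log2 scale and 1.06 above it in TG replicate 2. Ttr, the transthyretin gene that defines these cells, had 13701, 1122 and 204 normalized read counts in the TG libraries, in the order of their numbers, where WT mice had between 119.7 and 432. Of the 12 choroid plexus markers 1, Kcnj13, was at 0 in some library. The part of these other markers in the values of the 5 genes was not tested.

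**Figure D4:**
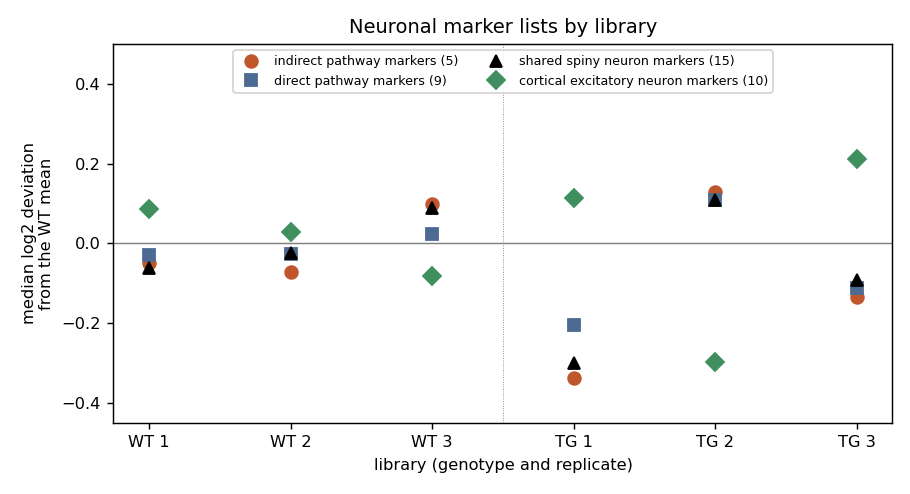
Median log2 deviation from the WT mean (vertical axis) in each library of the indirect pathway, direct pathway, shared spiny neuron and cortical excitatory neuron markers, with the number of genes in brackets. The 3 spiny neuron lists lie together, lowest in TG replicate 1 and highest in TG replicate 2, and the cortical markers lie on the opposite side of 0 from the indirect pathway markers in all 6 libraries.

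Set against the shared markers, most of the spread of Drd2, Adora2a, Penk and Gpr6 was gone. The SD over the 6 libraries went from 0.18 to 0.07 for Drd2, from 0.21 to 0.09 for Adora2a, from 0.18 to 0.07 for Penk and from 0.21 to 0.08 for Gpr6 on the log2 scale once the mean log2 level of the 15 shared markers was subtracted. It stayed at 0.17 for Sp9. With the shared markers as a covariate in limma, the log2 fold change was -0.0019 for Drd2 (standard error 0.05), -0.0032 for Adora2a (standard error 0.05), 0.03 for Penk (standard error 0.06), -0.05 for Gpr6 (standard error 0.05) and -0.13 for Sp9 (standard error 0.10), with adjusted P values between 0.783 and 0.998. This fit takes the level of spiny neuron RNA as given, so it shows the indirect pathway genes relative to spiny neurons in general.

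The balance of the pathways was compared as the mean log2 level of the 5 indirect pathway markers minus that of the 9 direct pathway markers. It was 1.54, 1.68 and 1.64 in TG replicates 1, 2 and 3 and 1.64, 1.69 and 1.69 in WT replicates 1, 2 and 3. TG replicate 1 was the lowest, and the other TG mice lay within the WT range. TG mice averaged 1.62 ± 0.07 (SD, n = 3) and WT mice 1.67 ± 0.03 (SD, n = 3), which differ by -0.06, and by -0.01 without TG replicate 1. This balance was not tested.

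The direct pathway genes themselves did not pass the test either (0 of 9 called, 3 higher and 6 lower, median log2 fold change -0.13, against -0.0018 over all genes tested). Drd1, the D1 receptor, had 4237, 6615 and 5465 normalized read counts in TG replicates 1, 2 and 3 and 5571, 5779 and 6405 in the WT replicates, in the same pattern as Drd2. Tac1, which encodes substance P, had 3513, 4561 and 3601 in TG and 3726, 3621 and 3659 in WT mice, and Pdyn, the dynorphin precursor, had 2427, 2914 and 2116 in TG and 2505, 2429 and 2411 in WT mice. In both peptide genes TG replicate 2 stood above every other library, as it did in Penk. Slc35d3, a gene of direct pathway neurons that bears on D1 receptor trafficking, was the only gene of the list at an unadjusted P value under 0.05 (log2 fold change -0.24, with a standard error of 0.09, and adjusted P = 0.971 by limma).

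A second list held 6 further genes enriched in indirect pathway neurons, and none of them was called or had an unadjusted P value under 0.05 (0 of 6, 4 higher and 2 lower, median log2 fold change 0.04). Their log2 fold changes were -0.14 for Gprin3 and -0.02 for Ttc12, 0.04 for Plxdc1, 0.05 for Nt5e, which makes adenosine outside the cell, 0.08 for Grik3, a kainate receptor subunit, and 0.26 for Upb1. They did not follow the 5 markers as a group. With the mean standardized profile of the 5 genes over the 6 libraries, Gprin3 had r = 0.898 and Nt5e r = 0.803, whereas Grik3 had r = -0.553, Plxdc1 r = -0.218 and Ttc12 r = 0.102. Upb1 was left out for its low count.

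The cAMP cascade that the D2 and A2a receptors act on was read from 30 genes, of which 29 were matched and tested. None was called or had an unadjusted P value under 0.05, 15 were higher and 14 lower in TG mice, and the median log2 fold change was 0.01. The 7 genes of this list that also mark spiny neurons, Gnal, Gng7, Adcy5, Ppp1r1b, Pde10a, Pde1b and Rgs9, were all lower, with a median of -0.14, and had a median r of 0.951 with the profile of the 5 markers. Ppp1r1b encodes DARPP-32, the protein kinase A target that inhibits protein phosphatase 1, and had 21063, 27626 and 22820 normalized read counts in TG replicates 1, 2 and 3 against 24935, 25065 and 28763 in the WT replicates. Pde10a, the striatal phosphodiesterase and the gene of the list with the most reads, had 31505, 43623 and 37727 in TG and 36461, 42861 and 45595 in WT mice. The other 22 genes, which include the widely expressed G protein and protein kinase A subunits, had a median log2 fold change of 0.03 and a median r of 0.237. Among them, and chosen after the values were seen, Pde7b had r = 0.962 and Ptpn5, the striatum-enriched phosphatase STEP, r = 0.919, whereas Prkaca, the catalytic subunit of protein kinase A, had r = -0.925 and Prkar1b, a regulatory subunit, r = -0.929.

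Genes that make, sense or break down enkephalin were tested as a list of 12, with 0 called, 4 higher and 8 lower and a median log2 fold change of -0.01. Pcsk1n, which encodes the proSAAS inhibitor of the convertase PC1/3, was the only 1 at an unadjusted P value under 0.05 (log2 fold change -0.20 with a standard error of 0.07, adjusted P = 0.971 by limma). Oprd1, the delta opioid receptor, had 788, 980.1 and 979 normalized read counts in TG and 805, 959 and 1129.99 in WT mice. Of the list, Mme, the enkephalin-degrading enzyme neprilysin, was closest to the 5 markers (r = 0.899).

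Of 10 genes for adenosine supply and its other receptors, 0 were called or had an unadjusted P value under 0.05, with 7 higher and 3 lower and a median log2 fold change of 0.05. Adora1, the inhibitory A1 receptor, had between 4786 and 5379.9 normalized read counts in all 6 libraries (log2 fold change -0.02, standard error 0.06). Of 14 tested genes for other dopamine receptors and D2 receptor partners, 0 were called, with 7 higher and 7 lower. Ppp1r9b, which encodes spinophilin, a scaffold of protein phosphatase 1 that binds the D2 receptor, had an unadjusted P value under 0.05 (log2 fold change -0.13, standard error 0.05, adjusted P = 0.971 by limma). Its TG values (33604 to 34998) lay below its WT values (36635 to 38700). Of the list, 2 genes had no overlap between the groups, where 10.1% of all genes tested had none. The other was Drd5, whose TG values (62.6 to 68.2) lay above its WT values (53.0 to 53.8).

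D2 receptors are also made by cholinergic interneurons, so their markers were read beside Drd2. Chat, the acetylcholine-synthesizing enzyme, had 309, 513 and 340 normalized read counts in TG replicates 1, 2 and 3 and 331, 399 and 449.6 in the WT replicates, so TG replicate 2 was the highest and TG replicate 1 the lowest as for Drd2. The 7 cholinergic markers summed to between 3576 and 4691 in TG mice and between 3697 and 4143 in WT mice, and 0 were called or had an unadjusted P value under 0.05. The share of Drd2 reads that came from these cells was not tested. Drd3, the receptor of the ventral striatum and islands of Calleja, had between 30.4 and 60.8 normalized read counts in all 6 libraries.

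Beyond the lists, 12827 other genes with a mean of at least 100 normalized read counts were ranked by r with the mean standardized profile of the 5 markers over the 6 libraries, and 186 of them (1.45%) had r above 0.9. The 10 highest were Atf7 (0.986), Phactr1 (0.984), Sertad4 (0.984), Gnal (0.981), Tmem158 (0.980), Dctd (0.979), Zfp503 (0.978), Diaph2 (0.977), Dbp (0.976) and Ebf1 (0.976). Gnal encodes the alpha subunit of Golf, through which the A2a receptor raises cAMP, and Ebf1 is a transcription factor of direct pathway neurons. The 5 lowest were Tspan3 (-0.993), Btbd11 (-0.992), Tmem59l (-0.991), Ncald (-0.990) and Clip3 (-0.984), and 204 genes (1.59%) had r below -0.9. The spread behind these values differed between genes. Among the 10 highest, the highest library exceeded the lowest between 1.11-fold (Phactr1) and 1.52-fold (Zfp503). Among the 5 lowest it did so between 1.06-fold (Tspan3) and 1.37-fold (Ncald). For the 5 markers the range was between 1.38-fold and 1.52-fold. Values of r beyond 0.9 were thus found in both directions, and they describe the order of these mice only.

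Across the lists of markers the likeness differed. The median r with the profile of the 5 markers was 0.920 for the 15 shared spiny neuron markers, with 11 of 15 above 0.9, 0.829 for 6 cholinergic markers, 0.691 for the 9 direct pathway markers and 0.672 for 8 microglia markers. It was 0.410 for 5 pallidal markers, 0.148 for 8 oligodendrocyte markers, 0.04 for 4 ventral striatum markers, -0.03 for 8 astrocyte markers and -0.275 for 8 markers of the other GABAergic interneurons. It was -0.514 for 4 choroid plexus markers and -0.751 for the 10 cortical excitatory neuron markers, with 0 of 10 above 0. The 4 choroid plexus markers were those with a mean of at least 100. Of them, Kl had 582 normalized read counts in TG replicate 1 and between 66.4 and 167 in the other libraries. It reached that mean with the help of the library lowest in 4 of the 5 markers, so the filter bears on this value. Of the pathway lists, the median r was 0.554 for the 29 cAMP genes, 0.104 for the 12 enkephalin genes, -0.04 for 7 adenosine genes and -0.555 for 12 dopamine receptor and partner genes. The median over the 12827 genes was -0.0076. Between genotypes 0 genes were called in each of the 16 lists. Beside Slc35d3, Pcsk1n and Ppp1r9b, given above, the genes with an unadjusted P value under 0.05 were 4 choroid plexus markers, Sostdc1, Clic6, Tmem72 and Kl, all higher in TG mice, and 2 microglia markers, C1qa and Cx3cr1, both lower. Over all genes tested, 4.31% had an unadjusted P value under 0.05 by limma. All 11 choroid plexus markers tested had a higher mean in TG mice, with a median log2 fold change of 0.95. The TG mice differed in this. The median log2 deviation from the WT mean was 2.96, 1.06 and -0.10 in TG replicates 1, 2 and 3. In these libraries 0, 3 and 7 of the 11 markers were below the WT mean. All 8 microglia markers had a lower mean, with a median of -0.11, and 4 of the 8 did not overlap between the groups, where 10.1% of all genes tested did not. Summed, the microglia markers had between 10360 and 11313 normalized read counts in TG mice and between 11352 and 11798 in WT mice. Their part in the values of the 5 genes was not tested.

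**Figure D5:**
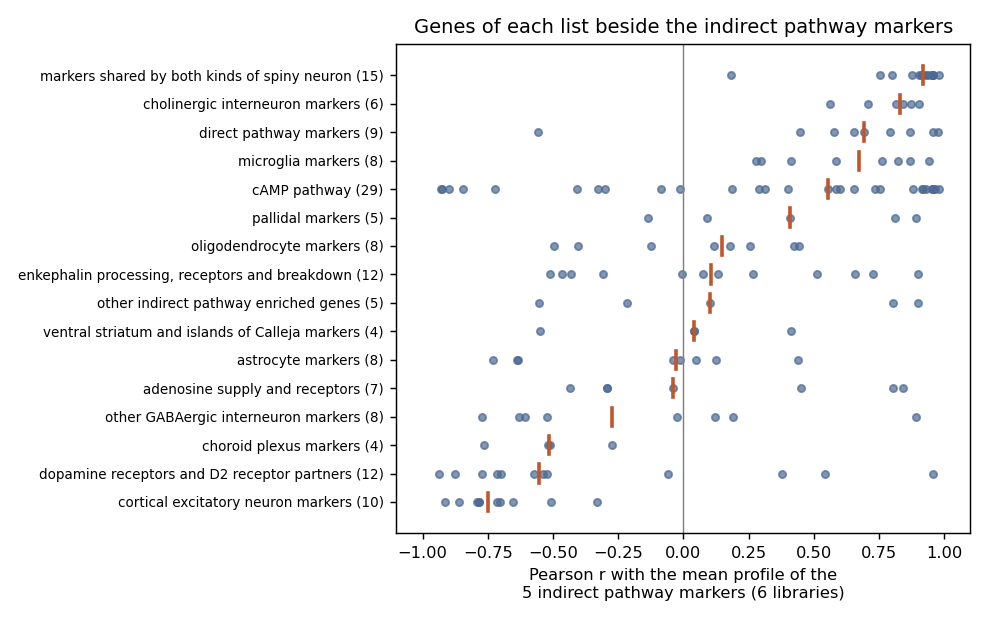
Pearson r (horizontal axis) of each gene of 16 lists with the mean standardized log2 profile of the 5 indirect pathway markers over the 6 libraries, 1 point per gene with a mean of at least 100 normalized read counts; bars give the median of the list and brackets the number of genes. Shared spiny neuron markers lie at the top with a median of 0.920 and cortical excitatory neuron markers at the bottom with -0.751.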

How the data were processed

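The authors trimmed paired-end 101-bp reads (Trimmomatic 0.35), aligned them to GRCm38 (TopHat2 2.1.0), counted them by gene (HTSeq) and divided by DESeq2 size factors, and these normalized values are the deposited signal. The strand setting and annotation release are not given in the sources used here. Dividing by the lowest value above 0 in a library returned whole read counts (100% of values within 0.01), with the totals given in the report. GENCODE M21 held 45143 of the 46078 Ensembl identifiers. As nothing beyond 1 library per mouse was made, P values between genotypes rest on the spread between libraries of the same genotype. In that spread the mouse, the dissection and the library preparation cannot be told apart.

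Genotypes were compared by limma 3.58.1 (R 4.3.3) with an intensity trend, after a pseudocount of 1 and log2 transformation, which shrinks fold changes of low genes. Genes needed a mean of 10, which left 17605, and P values were adjusted over all of these by the Benjamini-Hochberg method. The fit was tested on simulated data. Alternatives were edgeR 4.0.16 (1 gene called) and DESeq2 1.42.0 (7 genes called, 6 with a prior) on the recovered reads, other scalings, filters, pseudocounts and covariates, and each library left out. Exact permutation tests (scipy 1.17.1) enumerated all 20 splits or 720 orders of the libraries and were two-sided. The labels do not say whether replicate numbers pair the mice, and the main fit did not pair them.

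The members and the 16 other lists were chosen with earlier results of these data known. Genes named are the members, genes of a list at an unadjusted P value under 0.05 (at most 4) or else its gene with the most reads, Drd1, Tac1, Pdyn, Chat, Drd3, Shank3, and the 10 most and 5 least alike genes. Other genes, such as Oprd1, Mme, Ttr, Drd5 and those named for their r, were chosen after their values were seen. The design named 6 members, of which 5 were analysed.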

Additional observations from a re-analysis of the deposited data

How the results depend on the processing

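Over 19 alternatives, 0 of the 5 genes passed an adjusted P value of 0.05, and the lowest value reached was 0.469, for Gpr6 without TG replicate 2. The log2 fold changes of Drd2, Gpr6 and Sp9 kept their sign throughout. That of Penk turned to 0.030 with the shared spiny neuron markers as a covariate. With 1 library left out, the log2 fold change ranged from -0.24 to -0.0025 for Drd2, -0.29 to 0.018 for Adora2a, -0.22 to 0.040 for Penk, -0.32 to -0.06 for Gpr6 and -0.23 to -0.05 for Sp9. The positive values of Adora2a (0.018) and Penk (0.040) were those without TG replicate 1, and the lowest values of Drd2, Adora2a, Penk and Gpr6 were those without TG replicate 2. The cause was not tested.

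The number of genes called among all genes tested was 1, and it was 7 with DESeq2, 6 with its prior, 5 without a filter, 5 with the shared markers as a covariate and between 1 and 2 with a library left out (2 without TG replicate 2 or TG replicate 3). With the replicate number as a block it was 1, and the block left each fold change as it was, with P for Sp9 at 0.0392 before adjustment and 0.851 after. Libraries with the same number had correlations of 0.05, 0.02 and 0.09 in their deviations from the group means. These values show no strong pairing by number, but they cannot exclude a weaker one. A correction for GC content and length took the log2 fold change to -0.08 for Drd2, -0.07 for Adora2a, -0.06 for Penk, -0.13 for Gpr6 and -0.14 for Sp9. With the block added, an alternative chosen after the data were seen, these values were the same and 1 gene was called.

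The median pairwise correlation was 0.871 with all 5 genes and between 0.687, without TG replicate 1, and 0.935 with a library left out. With 3 mice per genotype, differences within the intervals given are not excluded. These intervals are not adjusted for the number of genes, so they do not show how large a difference would pass. Gpr6 without TG replicate 2 had an unadjusted P value of 0.0013 by limma and an adjusted one of 0.469.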
